A study of Mus musculus with 50 samples.

Results

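The 6 genes described here are products of the thyroid C cell: Calca, Calcb, Chga, Chgb, Scg2 and Ret. They were found by Ensembl ID in a table of read counts, where they are 6 of 52636 genes, and were chosen as a list of C cell neuroendocrine genes and not by their values. The data are 50 RNA-seq libraries of whole thyroid from male C57BL/6 mice, with ages given as 10 to 12 weeks in the series text and 10 to 14 weeks in the sample protocol, in 10 groups of 5 libraries. Every mouse received antibodies in 1 intraperitoneal dose. The isotype control (RW, anti-ragweed) was given at 40 mg/kg. Ligand blockade (aJ1aJ2) combined antibodies to Jag1 and to Jag2, each at 20 mg/kg. Receptor blockade (aN1aN2) combined antibodies to Notch1 at 5 mg/kg and to Notch2 at 10 mg/kg, and triple receptor blockade (aN1aN2aN3) added 1 to Notch3 at 20 mg/kg. RW, aJ1aJ2 and aN1aN2 thyroids were collected at 15 hours and at 5 days. The 7-day samples form 2 sets with separate sample numbers, the first of RW and aJ1aJ2 and the second of aJ1aJ2 and aN1aN2aN3, for which no control library was analysed here. The series text mentions daily thyroxine and triiodothyronine injections, and which mice had them is not given in the sources used here.

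C cells, or parafollicular cells, are a minority of the thyroid's cells and lie beside the follicles. They are endocrine cells with dense-core granules, and they release calcitonin when the calcium-sensing receptor meets high blood calcium. Calca gives calcitonin in C cells and the neuropeptide CGRP in neurons by alternative splicing, and Calcb, its paralogue, gives a second CGRP. Chga, Chgb and Scg2 encode the granins chromogranin A, chromogranin B and secretogranin II, acidic proteins of the granule core. Ret is the receptor tyrosine kinase for the GDNF family of ligands, works with a GFRα co-receptor (Gfra4 in C cells), and carries the mutations of hereditary medullary thyroid carcinoma. The granins and Ret are not private to C cells: chromogranin A is also a main secretory protein of parathyroid chief cells, and sympathetic neurons hold granins and Ret. Parathyroid glands and cervical ganglia lie next to the thyroid.

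The sequences around the start sites of the 4 genes that RefSeq's table holds are shown because of how these genes varied together. Calca and Scg2 went together over the 50 libraries. Chgb went with Scg2 by rank correlation over the 50, and with both by Pearson's r in a subset of 42 chosen after the data were seen. Chga was not correlated with Calca over the 50 or the 42 libraries. Each runs 5′ to 3′ on the gene's strand from 250 bases before to 50 bases after the start (RefSeq, GRCm38.p6). Capitals mark TGACGT, the core of the cAMP response element, and CAGCTG, an E-box form. Both strands were searched, and the palindrome TGACGTCA holds TGACGT once on each strand.
Calca, chr7:114636308-114636607, minus strand: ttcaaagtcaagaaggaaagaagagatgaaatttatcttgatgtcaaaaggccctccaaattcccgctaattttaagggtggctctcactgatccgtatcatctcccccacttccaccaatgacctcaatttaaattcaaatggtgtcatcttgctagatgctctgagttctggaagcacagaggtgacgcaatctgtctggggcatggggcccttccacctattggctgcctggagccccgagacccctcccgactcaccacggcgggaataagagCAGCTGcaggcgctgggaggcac
Scg2, chr1:79439977-79440276, minus strand: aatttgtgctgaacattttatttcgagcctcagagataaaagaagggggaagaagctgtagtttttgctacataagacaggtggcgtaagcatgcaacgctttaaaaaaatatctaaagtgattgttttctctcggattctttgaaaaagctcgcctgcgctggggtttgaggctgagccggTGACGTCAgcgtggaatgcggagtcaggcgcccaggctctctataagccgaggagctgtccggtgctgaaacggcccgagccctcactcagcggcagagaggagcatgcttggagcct
Chgb, chr2:132781392-132781691, plus strand: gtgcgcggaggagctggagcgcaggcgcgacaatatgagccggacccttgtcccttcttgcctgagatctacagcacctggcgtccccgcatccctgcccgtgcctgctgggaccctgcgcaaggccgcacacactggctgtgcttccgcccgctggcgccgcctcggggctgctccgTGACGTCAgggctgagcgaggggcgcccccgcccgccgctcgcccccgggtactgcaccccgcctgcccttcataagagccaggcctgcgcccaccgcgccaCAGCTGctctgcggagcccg
Chga, chr12:102554691-102554990, plus strand: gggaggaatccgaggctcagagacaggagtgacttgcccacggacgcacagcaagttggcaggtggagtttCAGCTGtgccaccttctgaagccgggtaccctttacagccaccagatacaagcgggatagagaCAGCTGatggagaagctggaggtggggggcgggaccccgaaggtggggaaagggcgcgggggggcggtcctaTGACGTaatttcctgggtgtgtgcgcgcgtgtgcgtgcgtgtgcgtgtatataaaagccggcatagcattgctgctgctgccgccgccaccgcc
Scg2 and Chgb each held TGACGTCA, Chga held TGACGT and 2 copies of CAGCTG, and Calca and Chgb each held 1 CAGCTG downstream of the start. Among 32851 RefSeq promoter windows of this length, 7.51% held TGACGT and 16.3% held CAGCTG. A match is a description of the letters and was not tested as a binding site.

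Libraries held 15.3 to 52.8 M counts (M for 1e6). Levels are CPM (counts per 1e6 counts) on the TMM-scaled library size. Thyroglobulin (Tg), the follicle's product, took 0.45% to 42.4% of the counts outside the second 7-day set. Within that set it took 1.15% to 2.82% after aJ1aJ2 and 3.73% to 6.5% after aN1aN2aN3. In these bulk samples fewer cells of a type and less RNA per cell cannot be told apart. Nothing in the labels says that replicates are separate mice beyond their numbering, so p-values measure the spread between these samples. Libraries of 2 kinds stood apart, 8 in all. Sympathetic neuron markers were present in aJ1aJ2 replicate 3 at 15 hours, aN1aN2 replicate 2 at 15 hours and aJ1aJ2 replicate 3 at 5 days, with 674, 279 and 438 CPM of Dbh (dopamine beta-hydroxylase) against 10.4 CPM or less in the other 47 libraries. The parathyroid hormone gene Pth was at 2.54 to 73.5 CPM in 5 libraries: RW replicates 3 and 4 and aJ1aJ2 replicate 4 at 5 days, and aJ1aJ2 replicate 1 of the first and replicate 3 of the second 7-day set. The other 45 libraries held 912 to 54334 CPM of Pth. RW replicate 3 at 5 days was also low in Tg (7964 CPM) and high in the muscle gene Acta1 (49722 CPM).

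Calca and Chga were among the most abundant transcripts of the tissue per base of exon, and Calcb was close to undetected. Per kilobase of GENCODE M21 exon, the median over the 15 RW libraries was 2210 CPM for Chga and 1530 CPM for Calca, with median ranks of 5 and 9 among all genes. Scg2 followed at 178 CPM per kilobase, a median rank of 80. Chgb at 12.7 and Ret at 11.5 CPM per kilobase were neighbours that did not differ beyond their ranges of 0.463 to 16.0 and 7.55 to 16.2. Calcb lay at 0.363 CPM per kilobase. Which of Calca and Chga was the higher differed between libraries. These per-length values assume that the exons of M21 were the region counted, which is not stated.

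The marker genes of C cells other than the 6 were present as well. Genes of the pathway lists were picked as the 3 highest of each by the deposited FPKM, which follow gene span and do not rank the genes by abundance. Their median levels over all 50 libraries were 310 CPM for Pam, which amidates peptide hormones, 119 CPM for the prohormone convertase chaperone Scg5 and 46.8 CPM for the convertase Pcsk1. Gfra4, the co-receptor that C cells use with Ret, had a median of 33.7 CPM. The calcium-sensing receptor Casr, which parathyroid cells also make, had a median of 134 CPM. The tissue thus held the C cell markers Scg5, Pcsk1 and Gfra4. Chga over libraries went with the parathyroid genes, as given below for Pth and Gcm2. Gfra4 did not go with Calca alone. Its Pearson's r over 50 libraries, taken as described below, was 0.54 with Calca, 0.65 with Scg2, 0.58 with Chga and −0.05 with Ret.

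**Figure D1:**
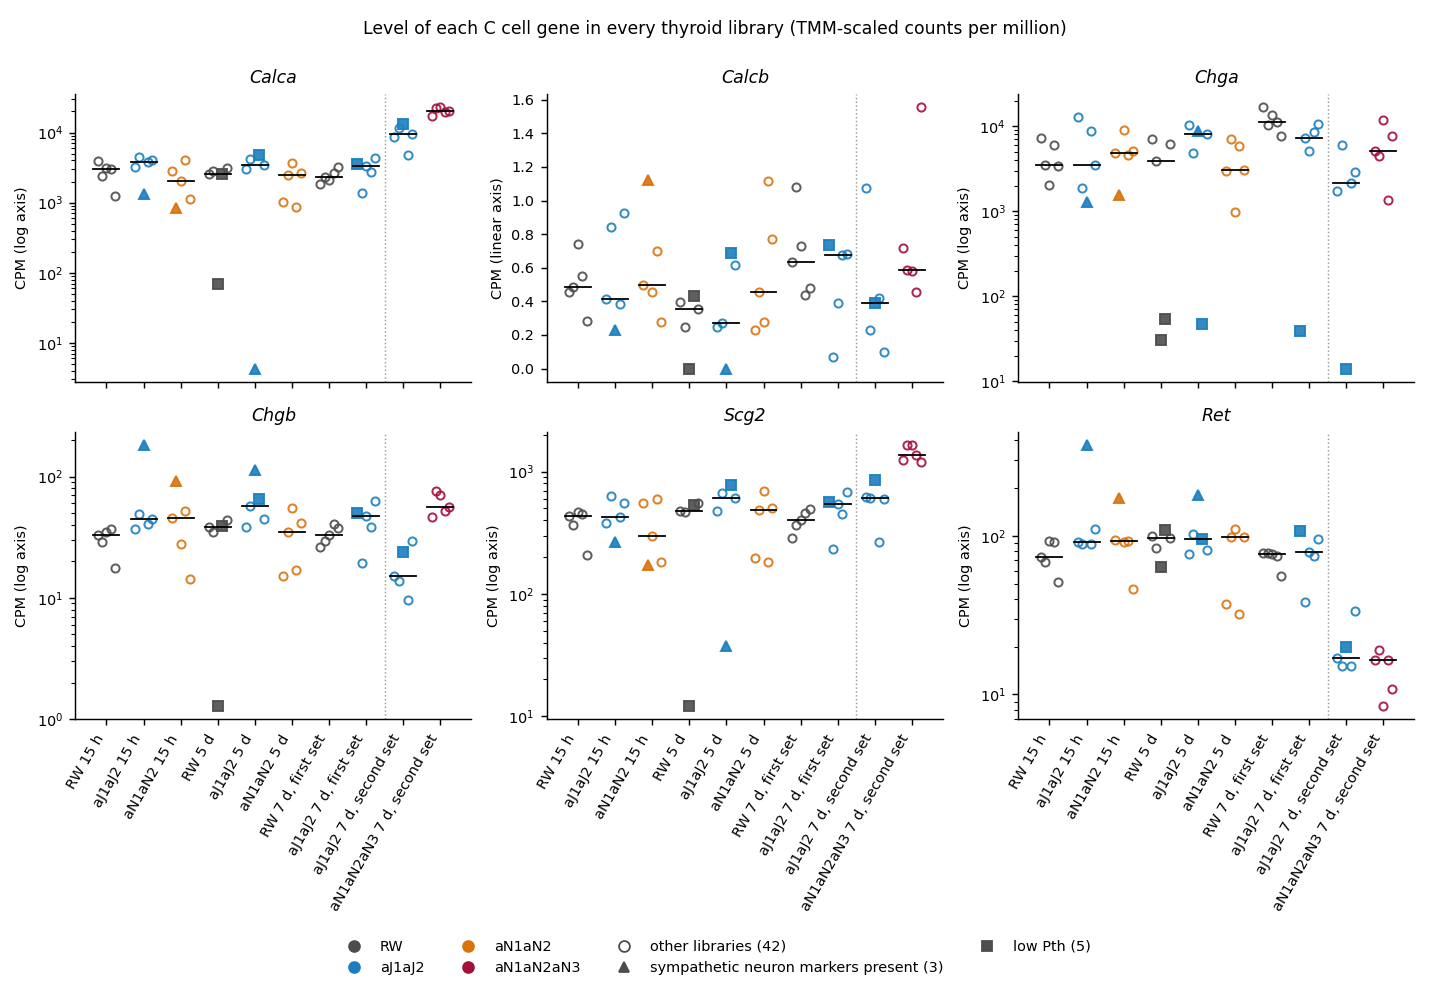
Levels of the 6 genes in the 50 libraries (points, CPM on the TMM-scaled library size, log axes except for Calcb) by group of 5, with a line at each group's median, triangles for the libraries with neuron markers and squares for those low in Pth. Calca sat highest and Ret lowest in the second 7-day set, and single libraries fell far below their groups for Calca, Chga, Chgb and Scg2.

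Calca counts, which do not separate calcitonin from CGRP transcripts, were even among most control thyroids. Calca stood at 3868, 2399, 3154, 3038 and 1258 CPM in RW replicates 1 to 5 at 15 hours, at 2526, 2843, 68.8, 2580 and 3126 CPM at 5 days, and at 1837, 2331, 2102, 2620 and 3243 CPM at 7 days. Of these 15 libraries 14 lay between 1258 and 3868 CPM, and the exception was the muscle-rich replicate 3 at 5 days. Scg2 stood at 435, 363, 472, 447 and 208 CPM at 15 hours, at 478, 467, 12.0, 536 and 552 CPM at 5 days, and at 289, 369, 403, 462 and 494 CPM at 7 days. In each of the 3 RW groups the library lowest in Calca was also lowest in Scg2.

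Chromogranin A varied far more. Chga stood at 7234, 3527, 2012, 5986 and 3434 CPM in RW replicates at 15 hours, at 6973, 3838, 30.9, 53.8 and 6099 CPM at 5 days, and at 16622, 10445, 13527, 11106 and 7614 CPM at 7 days. RW replicate 4 at 5 days had 53.8 CPM of Chga beside 2580 CPM of Calca, a Calca level within the range of the other RW libraries and a Chga level far below all but 1 of them. Low Chga beside 3594 CPM of Calca or more was also seen in aJ1aJ2 replicate 4 at 5 days (46.6 CPM of Chga, 4718 CPM of Calca), aJ1aJ2 replicate 1 of the first 7-day set (39.1 and 3594 CPM) and aJ1aJ2 replicate 3 of the second (14.1 and 13098 CPM). These are libraries in which Pth was low as well. The reverse occurred once: aJ1aJ2 replicate 3 at 5 days held 8763 CPM of Chga and 9380 CPM of Pth with 4.30 CPM of Calca.

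Ret was the steadiest of the 6 in control thyroids. It stood at 99.7, 84.3, 63.5, 110 and 96.6 CPM in RW replicates at 5 days and at 78.5, 78.0, 77.3, 74.7 and 56.0 CPM at 7 days. The muscle-rich replicate 3 at 5 days kept 63.5 CPM of Ret where it held 1.27 CPM of Chgb, against 34.7 to 43.8 CPM of Chgb in the other 4. Chga in the antibody groups spanned 1275 to 12812 CPM after aJ1aJ2 and 1538 to 8996 CPM after aN1aN2 at 15 hours, and 967 to 6968 CPM after aN1aN2 at 5 days, so that groups of every treatment overlapped.

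Correlations over libraries were taken after the mean of each group was removed from log2(CPM + 0.5), with p-values from 100000 permutations within groups and Benjamini-Hochberg adjustment over 15 gene pairs. Calca and Scg2 had a Pearson r of 0.91 and a Spearman rho of 0.95 over 50 libraries (p 1e-05 for both, the smallest the permutations can give; adjusted 7.5e-05). Without the 2 libraries farthest from the median of Calca r was 0.91. The libraries were also split into 2 blocks by the sample numbers in their titles, 30 in the first processing block and 20 in the second. The authors' FPKM were scaled together within each block and not across the 2, and the labels name no processing batch. Both 7-day sets are in the first block. Within the blocks r of Calca with Scg2 was 0.93 and 0.91. Without the 8 libraries that stood apart r was 0.96. The ratio of Scg2 to Calca counts lay between 0.111 and 0.207 in the 33 libraries outside the second 7-day set that did not stand apart, a 1.87-fold range, while Calca itself went from 877 to 4422 CPM in them.

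Chgb and Ret had an r of 0.71 and a rho of 0.79 (permutation p 1e-05, adjusted 7.5e-05), with 0.81 and 0.71 within the 2 processing blocks and 0.80 without the libraries that stood apart. The libraries with neuron markers were the highest of their groups for both. In aJ1aJ2 at 15 hours Chgb was at 36.9, 48.8, 181, 40.9 and 44.5 CPM and Ret at 91.0, 88.3, 373, 89.0 and 110 CPM. Replicate 3 was thus 4.25-fold over the median of its group's other libraries for Chgb and 4.15-fold for Ret, while its Calca, at 1336 CPM, was 0.336 of theirs. Replicate 3 of aJ1aJ2 at 5 days showed it again, with 112 CPM of Chgb, 181 CPM of Ret and 437.6 CPM of Dbh beside 118 counts of Calca. The part of neurons in these values was not tested.

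Without the 8 libraries that stood apart, Chgb joined Calca and Scg2. Over the other 42 libraries r was 0.91 for Calca with Chgb (rho 0.86) and 0.94 for Scg2 with Chgb, against 0.25 and 0.56 over all 50. The adjusted permutation p was 5e-05 for both, against 0.393 and 0.128. By rank over all 50, rho was 0.35 for Calca with Chgb (adjusted permutation p 0.0882). For Scg2 with Chgb it was 0.51 (adjusted permutation p 0.0135), past the threshold. The r of Ret with Calca went from −0.08 to 0.70 (rho 0.57, adjusted permutation p 0.0017), and that with Scg2 from 0.13 to 0.73 (adjusted permutation p 0.00054). This subset was chosen after the data were seen. Tg moved with Calca and Scg2: r with Tg was 0.85 and 0.94 over 50 libraries, and 0.59 for each in the first processing block. For Chgb and Ret r with Tg was 0.56 and 0.21 over 50 libraries. Neither passed (permutation p 0.112 and 0.226, adjusted over 30 pairs of a gene with a marker). Over 42 libraries r with Tg was 0.87 for Ret. The part of the thyroid's share of the tissue in this shared variation was not tested. The muscle gene Acta1 went the other way, with r = −0.60 for Calca.

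Calca and Calcb had an r of 0.41 (rho 0.28, adjusted permutation p 0.0337 and 0.131), which was 0.22 without the 2 libraries farthest from the median of Calca and 0.16 without the libraries that stood apart, so the relation rests on those libraries. Calcb and Scg2 had 0.41 (rho 0.34, adjusted permutation p 0.0337 and 0.0882). This was 0.46 without the 2 libraries farthest from the median of Calcb (adjusted permutation p 0.0318) and 0.20 without the 8 that stood apart (adjusted permutation p 0.541). In all, 4 of 15 pairs passed the threshold of 0.05 by Pearson's r. Calcb reached at most 43 counts in a library and was at 0 in 2, where a count of 0 allows up to 0.152 and 0.109 CPM. Its exons share 12 of 1260 stretches of 50 bases with Calca (0.952%). Whether misassigned Calca reads had a part in its counts was not tested.

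Chga varied with the parathyroid genes. Over 50 libraries Chga and Pth had an r of 0.98 (rho 0.97), and Chga and Gcm2, the parathyroid transcription factor, an r of 0.99 (rho 0.96). The permutation p of both was 1e-05, the smallest possible, and 3.33e-05 after adjustment over 30 pairs of a gene with a marker. These held within the blocks (0.97 and 0.99 for Pth) and over the 42 libraries that did not stand apart (0.93 for Pth and 0.92 for Gcm2). By contrast r was 0.02 for Chga with Calca and −0.04 for Calca with Pth. The ratio of Chga to Pth counts lay between 0.833 and 1.61 in the 33 libraries, a 1.94-fold range, while Chga over Calca covered 0.267 to 9.05, a 33.9-fold range. Whether C cells or parathyroid cells made the Chga RNA was not tested.

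**Figure D2:**
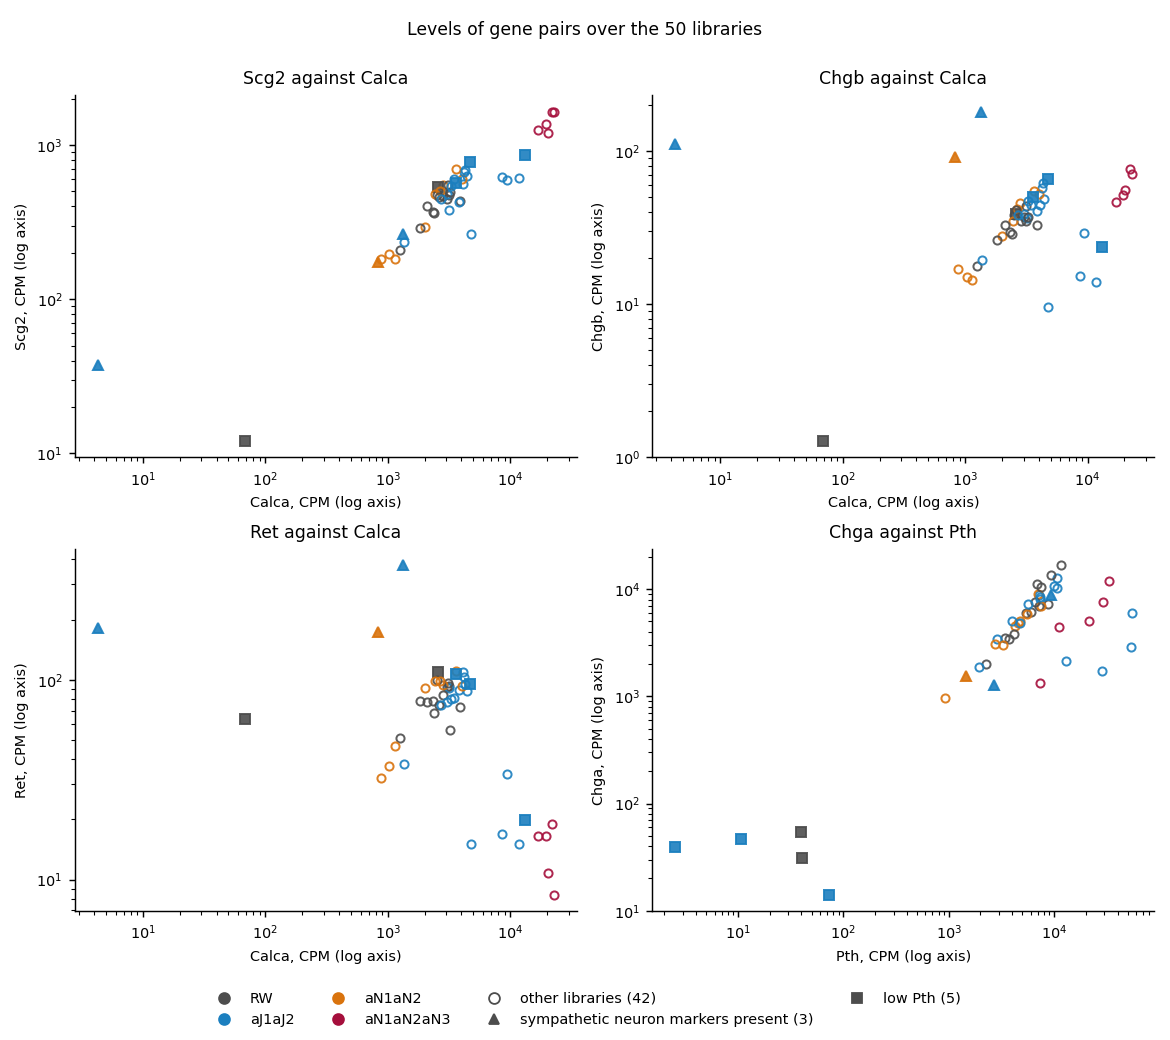
Pairs of genes over the 50 libraries (each point a library, CPM on log axes, colours and marks as keyed). Scg2, Chgb and Ret are drawn against Calca and Chga against Pth: most libraries outside the second 7-day set lie along a line in each panel, the 3 libraries with neuron markers lie above it for Chgb and Ret, and the 5 low in Pth are also the lowest in Chga.

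The genes whose pattern was most like each of the 6, by Pearson's r of the same group-centred values over 50 libraries and 21546 genes, are given as a description. Calca was closest to Pnoc (prepronociceptin, r = 0.96), Pcsk2 (a prohormone convertase, 0.95) and Cnpy1 (0.94), followed at some distance by Scg2 (0.91) and by Nkx2-1, a thyroid transcription factor, at 0.89. Scg2 was closest to Slc23a1 and Kcnip3, both at 0.98, and had Pcsk2 at 0.98. Chgb was closest to Dner (0.96), the granule membrane protein Ptprn (0.96) and the splicing factor Celf3 (0.95). Ret was closest to the neuronal genes Ap3b2 (0.89), Scn3a (0.86) and Rtn1 (0.85). Over the 42 libraries that did not stand apart it was closest to Pdxk (0.93), Lamb1 (0.91) and Vps39 (0.91), with the follicle oxidase Duox2 at 0.90. Among those 42 Rtn1 was at rank 6 (0.90), Ap3b2 at rank 30 (0.86) and Scn3a at rank 117 (0.81). Chga was closest to Rhcg, Gcm2 and Kl, all at 0.99, followed by Pth. Calcb was closest to Smchd1 (0.75), the lowest leading value of the 6. Over those 42 libraries Calca was closest to the granule protein gene Resp18 (0.97) and to Scg2 (0.96).

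After ligand blockade at 15 hours none of the 6 genes passed the test. RW thyroids had 32.9, 28.9, 35.2, 37.0 and 17.6 CPM of Chgb and 73.4, 68.3, 93.3, 91.7 and 51.0 CPM of Ret, beside the aJ1aJ2 values given above. For Chgb 1 of the 5 aJ1aJ2 values lay within the RW range and 4 above it, and for Ret 3 lay within and 2 above. Chgb differed by a log2 fold change of 1.22 (SE 0.52, adjusted p = 0.716, edgeR's quasi-likelihood test with Benjamini-Hochberg adjustment over all genes tested) and Ret by 0.99 (SE 0.43, adjusted p = 0.719). Both were under 0.05 before adjustment, and the share of all genes under 0.05 before adjustment is not given here. Without the libraries with neuron markers the differences were 0.52 and 0.35, with edgeR adjusted p of 0.674 and 0.678. Calca differed by 0.30, Chga by 0.34, Scg2 by 0.23 and Calcb by 0.17. Over all genes 0.573% passed, and of the 6 none did. DESeq2, limma with library quality weights and limma on log2 FPKM also called 0 of the 6 in this and in every later comparison that does not use the second 7-day set.

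After blockade of Notch1 and Notch2 at 15 hours none of the 6 genes passed either. Calca stood at 2828, 826, 2010, 4027 and 1144 CPM and Scg2 at 552, 173, 296, 602 and 182 CPM, with 2 libraries below every RW library for both genes and 1 (Calca) or 2 (Scg2) above every RW library. The log2 fold changes against RW were −0.34 for Calca, −0.10 for Scg2, 0.17 for Chga, 0.62 for Chgb, 0.40 for Ret and 0.29 for Calcb, with edgeR adjusted p from 0.631 to 0.946. Of all genes 1.68% passed and of the 6 none (0 at an unadjusted p under 0.05). At this time the aN1aN2 libraries fall in the other block than RW and aJ1aJ2, and block and treatment cannot be told apart. Against aJ1aJ2 the values were −0.64 for Calca, −0.60 for Chgb, −0.60 for Ret, −0.32 for Scg2, −0.17 for Chga and 0.12 for Calcb, none past the threshold with edgeR (adjusted p from 0.565 to 0.922, 0 of 6 at an unadjusted p under 0.05), where 0.13% of all genes passed.

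At 5 days no gene of the 6 passed in either antibody group. Calca was at 3023, 4229, 4.30, 4718 and 3463 CPM after aJ1aJ2 and at 1033, 2444, 3625, 877 and 2648 CPM after aN1aN2. Apart from replicate 3, the aJ1aJ2 values lay above at least 4 of the 5 RW libraries, and aN1aN2 held 3 libraries lower than any RW library but replicate 3. The differences from RW were smaller than their errors, 0.46 on the log2 scale for aJ1aJ2 (SE 1.07) and −0.08 for aN1aN2. Without the 5 libraries low in Pth, which include 2 RW and 1 aJ1aJ2 library of this time, the aJ1aJ2 value for Calca was −0.09. Chga differed by 0.91 (SE 1.27) after aJ1aJ2 and by 0.22 after aN1aN2, and Chgb by 1.02 (SE 0.63) and 0.04. The edgeR adjusted p for the 6 genes ran from 0.557 to 0.883 after aJ1aJ2 and from 0.823 to 1.0 after aN1aN2. Of all genes 0.179% passed after aJ1aJ2 and 0.0% after aN1aN2, and 0 of the 6 were under 0.05 before adjustment. For aN1aN2 1848 genes were under 0.05 before adjustment and other settings and tools called 0 to 1507. Receptor against ligand blockade gave −0.54 for Calca and −0.98 for Chgb, with an edgeR adjusted p of 1.0 for all 6 and 0 under 0.05 before adjustment. There 0.0% of all genes passed (778 before adjustment, 0 to 69 with other settings and tools).

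An interaction term asked whether each antibody effect differed between 5 days and 15 hours, and it passed for 0 of the 6 genes, with edgeR adjusted p of at least 0.686 for aJ1aJ2 and 0.642 for aN1aN2. Of all genes 0.636% and 1.8% passed. None of the 6 was under 0.05 before adjustment in either.

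In the first 7-day set none of the 6 genes passed after ligand blockade. Calca was at 3594, 1368, 3291, 2702 and 4301 CPM after aJ1aJ2, and 3 of these lay above every RW library of the set and 1 below. Chgb was at 50.2, 19.4, 47.5, 38.5 and 62.3 CPM against 26.3, 29.5, 33.0, 41.0 and 37.4 CPM in RW, with replicate 2 lowest, as it was for Calca, Scg2 and Ret. The log2 fold changes were 0.38 for Chgb (SE 0.26), 0.33 for Calca, 0.29 for Scg2, 0.11 for Ret, −0.35 for Calcb and −0.91 for Chga (SE 0.87), with edgeR adjusted p from 0.557 to 0.849. Of all genes 0.0% passed (1968 were under 0.05 before adjustment, and other settings and tools called 0 to 621), and 0 of the 6 were under 0.05 before adjustment. Without aJ1aJ2 replicate 1, which was low in Pth and Chga, the call was the same.

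**Figure D3:**
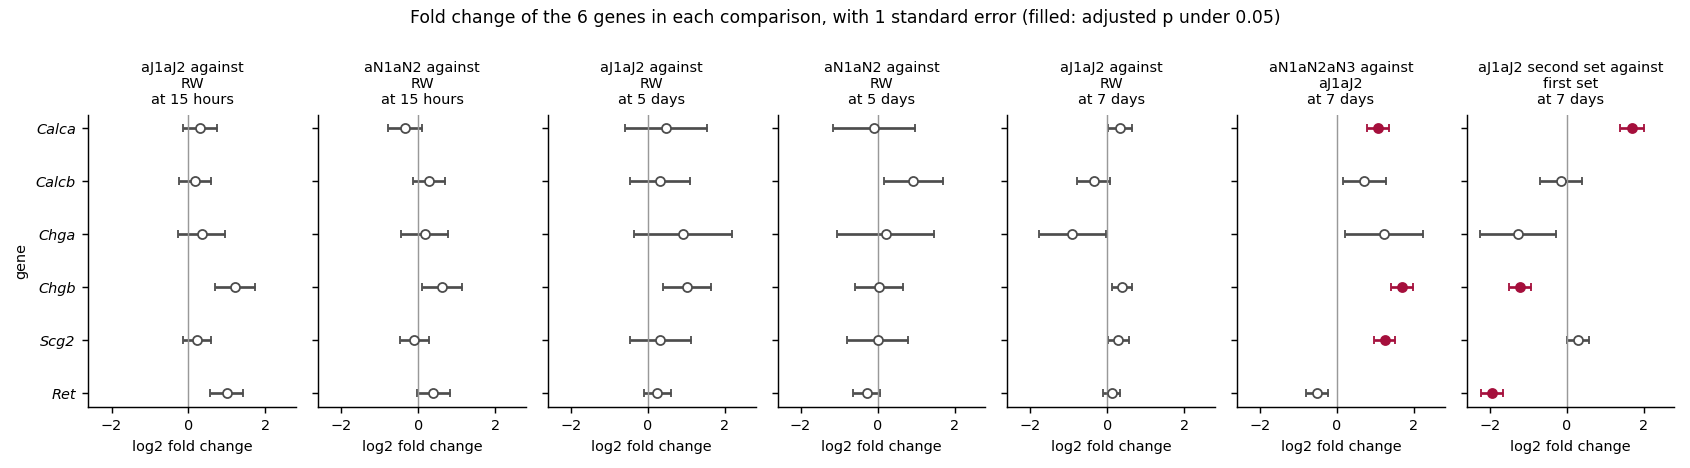
Log2 fold changes of the 6 genes in 7 comparisons with their standard errors (points and bars, edgeR; filled points passed an adjusted p of 0.05). Filled points occur in both comparisons that use the second 7-day set and in none of the others.

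Triple receptor blockade gave the one antibody comparison in which genes of the list passed the test. Its comparison group is aJ1aJ2, so which of the 2 treatments departs from control cannot be told apart. In the second 7-day set Calca stood at 8649, 11767, 13098, 4755 and 9412 CPM after aJ1aJ2 (9536 ± 3214, SD, n = 5) and at 16965, 22158, 22876, 19443 and 20300 CPM after aN1aN2aN3 (20348 ± 2342). Every aN1aN2aN3 library was above every aJ1aJ2 library. Scg2 stood at 621, 608, 858, 264 and 595 CPM (589 ± 212) against 1256, 1643, 1639, 1365 and 1198 CPM (1420.2 ± 210), again without overlap. Chgb stood at 15.2, 13.9, 23.7, 9.59 and 29.2 CPM (18.3 ± 7.96) against 46.7, 76.4, 70.7, 51.6 and 56.0 CPM (60.3 ± 12.7), the widest gap of the 3 as a ratio. Groups did not overlap for 15.0% of all genes.

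Chgb was 3.22-fold higher under aN1aN2aN3 (log2 1.69, SE 0.28, adjusted p = 0.00293), Scg2 2.36-fold (1.24, SE 0.28, adjusted p = 0.0107) and Calca 2.09-fold (1.06, SE 0.29, adjusted p = 0.0259), by edgeR's quasi-likelihood test. In this comparison 19.6% of all genes passed, and 9.19% of all genes did so as higher under aN1aN2aN3 (1696 higher and 1918 lower, or 1815 and 1198 without scaling beyond total count), and the 6 genes gave 3 of 6 higher and 0 lower. The median log2 fold change of the 6 was 1.14 beside −0.07 over all genes. The call for Calca did not hold without scaling beyond total count (1.11, adjusted p = 0.0583), nor without aJ1aJ2 replicate 1 or 2 or aN1aN2aN3 replicate 2, 3, 4 or 5 (adjusted p from 0.0538 to 0.0685). Scg2 and Chgb passed with each library left out in turn. Without aJ1aJ2 replicate 3, low in Pth, the values were 1.20 for Calca, 1.40 for Scg2 and 1.79 for Chgb, with edgeR adjusted p of 0.0294, 0.0115 and 0.00627.

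The other 3 genes did not pass. Ret was at 17.0, 15.1, 19.8, 15.1 and 33.7 CPM after aJ1aJ2 and at 16.6, 19.0, 8.39, 16.4 and 10.8 CPM after aN1aN2aN3, overlapping groups with a log2 fold change of −0.53 (SE 0.28, edgeR adjusted p = 0.202). Chga was at 1709, 5997, 14.1, 2121 and 2878 CPM against 5053, 4407, 11931, 1343 and 7649 CPM (1.22, SE 1.01, edgeR adjusted p = 0.418). Pth did not pass either (−0.58, edgeR adjusted p = 0.723), and the Chga to Pth ratio was 0.0542 to 0.192 in aJ1aJ2 and 0.184 to 0.394 in aN1aN2aN3. Calcb was at 0.10 to 1.07 CPM against 0.457 to 1.55 CPM (0.71, SE 0.55, edgeR adjusted p = 0.381).

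As ratios to Calca, neither Chgb nor Scg2 separated the groups of this set, while Ret did. Chgb counts were 0.00118 to 0.00311 of the Calca counts after aJ1aJ2 (median 0.00181) and 0.00266 to 0.00345 after aN1aN2aN3 (median 0.00276), overlapping ranges. Scg2 counts were 0.0517 to 0.0719 of Calca and 0.0590 to 0.0742, also overlapping. Ret counts were 0.00128 to 0.00358 of Calca after aJ1aJ2 and 0.000367 to 0.000978 after aN1aN2aN3, without overlap. Calca, the shared denominator, itself separated the groups, and Ret by itself did not. How many of all genes separate as a ratio to Calca was not computed. The ratios of Chga and of Calcb to Calca overlapped.

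Markers of other cells moved in the same comparison. The summed follicle markers were 13510 to 25440 CPM after aJ1aJ2 and 27820 to 49060 CPM after aN1aN2aN3, without overlap. Of the 10 follicle markers tested 2 were higher, 1 was lower and 7 did not pass, with a median log2 fold change of −0.20. Tg (1.31, edgeR adjusted p = 0.0137) and Pax8 (0.78, adjusted p = 0.0222) were higher, and the iodide transporter Slc5a5 was lower (−1.91, adjusted p = 0.0165). The summed adipose markers went from 2224 to 3814 CPM down to 214 to 1072 CPM. Muscle markers overlapped, at 279 to 138900 and 5520 to 28800 CPM, as did parathyroid markers at 81.8 to 54610 and 7361 to 33390 CPM. The neuron list overlapped at 27.2 to 67.4 and 37.4 to 54.6 CPM, and Dbh was at 0 counts in 10 of 10 libraries of the set. The part of the thyroid's share of the piece in the values of Calca, Scg2 and Chgb was not tested. C cell markers outside the 6 summed to 204.5 to 569 and 530.4 to 639.5 CPM, and 1 of 9, Pcsk2, passed. Gfra4, the C cell co-receptor of Ret, had 0.50 (edgeR adjusted p = 0.238).

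The wider pathway of 47 genes, in lists chosen for their role, is given for the same comparison. Of the 40 tested, 7 were higher, 1 was lower and 32 did not pass, so the 8 calls are a share close to the 19.6% of all genes. By direction, 9.19% of all genes passed as higher (1696 higher and 1918 lower). Of 6 hormone processing genes 1 was higher, Pcsk2, at 156 to 231 CPM against 31.3 to 106 CPM (log2 1.51, edgeR adjusted p = 0.00558). Of 11 granin and vesicle genes 3 were higher: the granule membrane phosphatases Ptprn (1.84, edgeR adjusted p = 0.00448) and Ptprn2 (1.08, 0.0125), and Resp18 (0.82, 0.0476).

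Of 7 Ret ligand and co-receptor genes 2 were higher, Nrtn (neurturin), at 23.5 to 56.9 CPM against 9.28 to 14.8 CPM (1.82, edgeR adjusted p = 0.00124), and Artn (artemin, 0.89, 0.0417). Both are GDNF family ligands, and Ret itself did not pass. Of 4 receptor genes for calcitonin and CGRP 1 was lower, Calcrl, the CGRP receptor's core subunit, which endothelium also makes, at 8.31 to 18.4 CPM against 25.2 to 80.8 CPM (−1.96, edgeR adjusted p = 0.00271). Of 6 other C cell products 1 was higher, Sst (somatostatin), at 9.18 to 19.7 CPM against 2.05 to 6.56 CPM (1.62, edgeR adjusted p = 0.00558). None of the 6 transcription factors passed. Endothelial markers summed to 99.0 to 171 CPM after aJ1aJ2 and 150.5 to 212 CPM after aN1aN2aN3. Of these 4 genes Pecam1 (1.15) and Cdh5 (1.09) were higher, with edgeR adjusted p of 0.00166 and 0.0456, while Kdr, like Calcrl, was lower (−0.99, adjusted p = 0.00933). Their part in the value of Calcrl was not tested.

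In the 7 comparisons of 2 groups that do not use the second set, 0 of the 39 to 41 tested pathway genes passed with edgeR. Before adjustment 2 to 8 were under 0.05. The same count over all genes is given above for only some of these comparisons, so the 2 to 8 are not weighed here. In the 2 interactions 0 of 41 passed, and 0 were under 0.05 before adjustment.

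**Figure D4:**
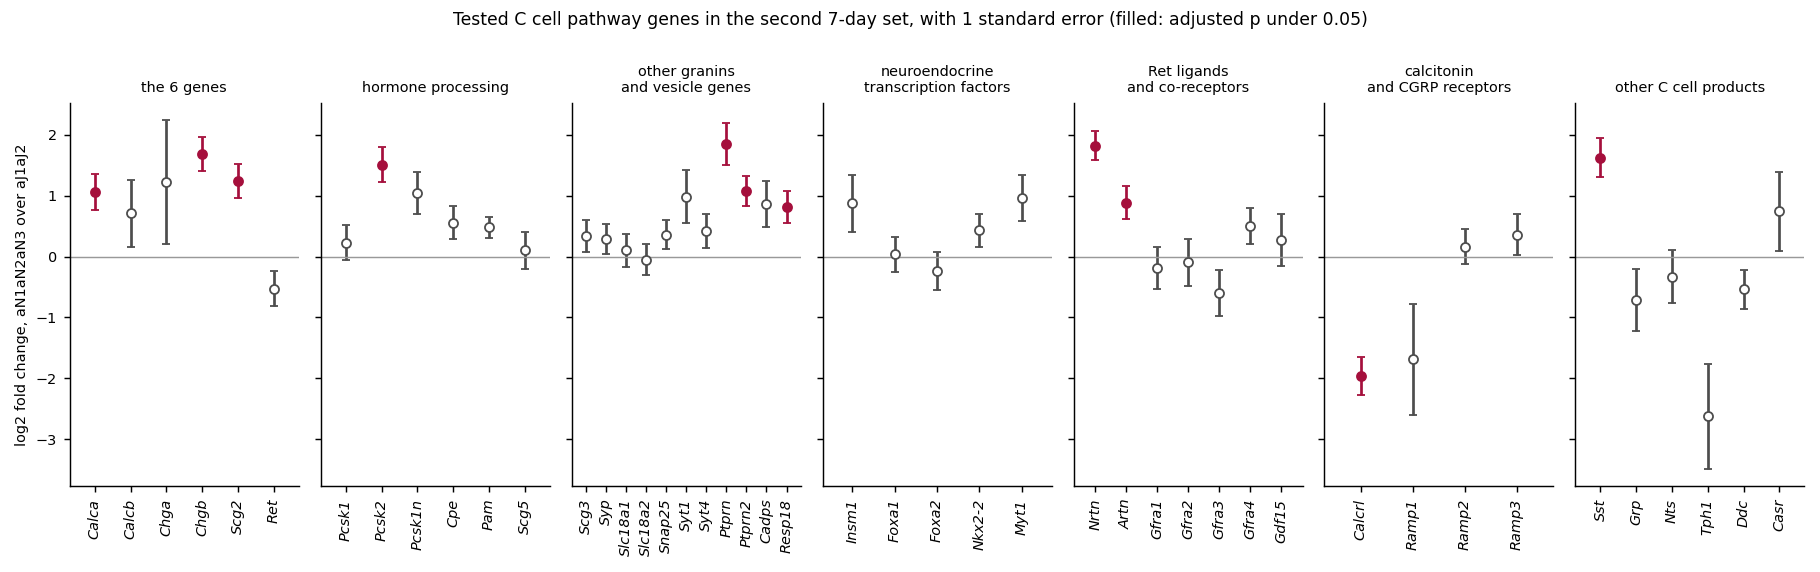
Log2 fold changes of aN1aN2aN3 against aJ1aJ2 in the second 7-day set for the 6 genes and the tested genes of the pathway lists except 1 (points, with standard errors; filled points passed an adjusted p of 0.05). Chgb, Scg2 and Calca are filled among the 6, and 7 pathway genes are filled on the higher side and Calcrl on the lower.

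Both 7-day sets hold aJ1aJ2 mice, and the same treatment gave different levels in them. Calca was 3.22-fold higher in the second set than in the first (log2 1.69, SE 0.31, edgeR adjusted p = 7.35e-05), and the groups, at 4755 to 13098 and 1368 to 4301 CPM, did not overlap. Ret was lower by 1.94 on the log2 scale (SE 0.28, edgeR adjusted p = 4.95e-06), at 15.1 to 33.7 against 38.0 to 107 CPM, also without overlap. Chgb was lower by 1.21 (SE 0.29, edgeR adjusted p = 0.00117), at 9.59 to 29.2 against 19.4 to 62.3 CPM. Chga (−1.27), Scg2 (0.30) and Calcb (−0.14) did not pass, with edgeR adjusted p of 0.278, 0.368 and 0.836.

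The background of this comparison is high: 64.0% of all genes passed, 34.1% as higher and 29.9% as lower in the second set, and groups did not overlap for 43.6% of genes. The 3 calls among 6 genes are a share below that background. Set and any undocumented treatment cannot be told apart. The medians by exon length went from 1.01 in the quartile of shortest genes through 0.31 and −0.14 to −0.62 in the longest. Exon lengths are 1264 bases for Calcb, 1684 for Calca, 2515 for Scg2, 2740 for Chgb, 2756 for Chga and 6763 for Ret. Calcb and Calca fall in the quartile of shortest genes and had −0.14 and 1.69. Scg2, Chgb and Chga fall in the next and had 0.30, −1.21 and −1.27. Ret falls in the longest and had −1.94. The part of length in these values was not tested. Counting without scaling beyond total count moved the median of all genes from 0.09 to 0.52.

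The proportions among the genes differed with the set as well. Chgb over Calca was 0.00850 to 0.0193 in the 33 libraries and 0.00118 to 0.00345 in the second set. Ret over Calca was 0.0173 to 0.0452 and 0.000367 to 0.00358, and Scg2 over Calca 0.111 to 0.207 and 0.0517 to 0.0742. None of these ranges overlapped, so every library of the second set held more Calca counts for each Scg2, Chgb or Ret count than any of the 33. The 3 ratios share Calca, which alone was at 4755 CPM or more in the second set and at most 4422 CPM in the 33. How many of all genes separate in the same way as a ratio to Calca was not computed. Per kilobase of exon Calca had a median rank of 2.5 among all genes in the second set and was the first in at least 1 library, and Ret had a median of 2.44 CPM per kilobase.

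Of the 41 pathway genes tested between the sets, 8 were higher and 12 lower in the second, a share below the 64.0% of all genes. The higher ones included Tph1 (tryptophan hydroxylase, log2 4.25), Resp18 (1.37), Grp (gastrin-releasing peptide, 1.20), Scg5 (1.12) and Nrtn (1.08). The lower ones included Ptprn2 (−3.26), Ptprn (−2.6), Pam (−2.23), Insm1 (−2.08) and Pcsk2 (−1.30). Ptprn, Pcsk2 and Chgb were thus lower in the second set than in the first after aJ1aJ2, and higher after aN1aN2aN3 than after aJ1aJ2 within it. The 2 comparisons share the aJ1aJ2 libraries of the second set.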

How the data were processed

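The members and lists were chosen with earlier results of these data known. RNA-seq was measured in 50 thyroid libraries of single-end reads, per the labels' protocols. GSNAP and limma are named without a role per the submitters' processing notes, and of the counting step neither the program, its strand setting, the gene models nor the build is given in the sources used here. Whole-number read counts per gene without normalization and FPKM values were deposited by the authors. Count divided by FPKM gave gene lengths that were 0.944 of the GENCODE M21 gene span at the median (quartiles 0.943 and 0.944, 15472 genes) and 4.44 of the summed exon length (quartiles 2.14 and 9.00), so the deposited FPKM are on the scale of gene span, and levels of different genes were compared as CPM per kilobase of M21 exon. Coordinates are RefSeq's on GRCm38.p6. Every column matched a library by the ID in its title (0 did not).

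Counts were tested with edgeR 4.0.16 in R 4.3.3 (TMM, filterByExpr at its settings of 10 counts and a total of 15, robust glmQLFit, glmQLFTest), with Benjamini-Hochberg adjustment over all genes and a threshold of 0.05. The 15-hour and 5-day groups were each fitted together and the 7-day sets separately, while the sets were compared with all 20 libraries and interactions with 30. All 6 genes passed the filter in every comparison. Named pathway genes are the 3 highest by FPKM of each list and those past the threshold in the triple receptor comparison. The lists' counts include 1 gene that is not reported here. Alternatives were RLE factors, no scaling, no filter, DESeq2 1.42.0, limma 3.58.1 with quality weights or on log2(FPKM + 0.1), only the groups compared, a replicate block and each library left out. Leaving out libraries over 100 CPM of Dbh or under 150 CPM of Pth (unscaled) was added after the data were seen. The edgeR script was tested on simulated data. Correlations, marker sums and ratios were computed in Python 3.11.15.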

Additional observations from a re-analysis of the deposited data

Results flagged for a closer look

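In 60 groups of 5 libraries (6 genes in 10 groups), a single library lay apart from the other 4 in 12. The rule marks about 1 in 20 groups by chance alone. The 60 groups are not independent, since the 6 genes were measured in the same libraries and some libraries were marked for more than 1 gene. Calca was low at 1336 CPM in aJ1aJ2 replicate 3 at 15 hours (3186 to 4421 CPM in the other 4), at 68.8 CPM in RW replicate 3 at 5 days (2526 to 3126 CPM) and at 4.30 CPM in aJ1aJ2 replicate 3 at 5 days (3023 to 4718 CPM). Chga was low at 46.6 CPM in aJ1aJ2 replicate 4 at 5 days, at 39.1 CPM in aJ1aJ2 replicate 1 of the first 7-day set and at 14.1 CPM in aJ1aJ2 replicate 3 of the second. Those 3 were also the libraries of their groups that were low in Pth.

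Chgb was high at 181 CPM and Ret at 373 CPM in aJ1aJ2 replicate 3 at 15 hours, which held the neuron markers. Chgb was low at 1.27 CPM and Scg2 at 12.0 CPM in RW replicate 3 at 5 days, and Scg2 at 37.3 CPM in aJ1aJ2 replicate 3 at 5 days. The only such library outside those named as standing apart was RW replicate 5 of the first 7-day set, with 56.0 CPM of Ret against 74.7 to 78.5 CPM in the other 4.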

How the results depend on the processing

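The 3 calls under triple receptor blockade were 3 with DESeq2 and with quality weights, 2 under the replicate block and without scaling, and 2 to 3 with each library left out. The replicate numbers were not treated as pairs, since some same-number correlation was below 0.1 in each fit (−0.229 to 0.0388 in that set, −0.507 to 0.223 in the first 7-day set, −0.307 to 0.756 at 15 hours and −0.646 to 0.676 at 5 days). The same-number median was nevertheless above that of other pairs at 15 hours (0.109 against −0.0298, 8 of 15 over 0.1) and at 5 days (0.317 against 0.0739, 9 of 15). The block moved that comparison from 3614 to 2100 genes and Calca to 1.13 (edgeR adjusted p 0.0899), and 2042 (with 1 library left out) to 8214 genes passed over the settings run. Between the 7-day sets 3 genes passed in each leave-one-out fit, and 4 without scaling (Scg2 0.78) or without the libraries low in Pth (Chga −1.27, edgeR adjusted p 0.0389). In the other comparisons 0 of the 6 passed in any leave-one-out fit.

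Every value that changed sign was one that had not passed. At 15 hours these were, for aJ1aJ2, Calcb −0.057 with quality weights and Chga −0.0055 on FPKM, and for aN1aN2, on FPKM, Calcb −0.013 and Chga −0.14, and without the neuron-marker libraries Calcb −0.043 and Scg2 0.086. At 5 days aJ1aJ2 gave Calca −0.41 on FPKM, Chga −0.84 and Ret −0.056 with quality weights, Ret −0.038 without the neuron-marker libraries, and Calca −0.087, Calcb −0.23 and Scg2 −0.16 without those low in Pth. At 5 days aN1aN2 gave Calca 0.46 on FPKM and 0.51 under the block, Chgb −0.13 under the block, and Chga −0.52 and Chgb −0.27 without those low in Pth. Its Scg2 was 0.0098 with DESeq2, RLE factors or only the groups compared, 0.0034 with quality weights, 0.051 unscaled, 0.50 under the block and 0.56 on FPKM. Ret at 7 days was −0.015 without the libraries low in Pth, and Calcb between sets was 0.34 unscaled and 0.058 without them.

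With 1 library left out, aJ1aJ2 at 15 hours gave −0.064 to 0.38 for Calcb and −0.19 to 0.65 for Chga. For aN1aN2 at 15 hours it was −0.050 to 0.47 for Calcb, −0.13 to 0.43 for Chga and −0.36 to 0.089 for Scg2. At 5 days aJ1aJ2 gave −0.032 to 0.62 for Calcb and −0.038 to 0.34 for Ret, and aN1aN2 −0.39 to 0.11 for Calca, −0.11 to 0.65 for Chga, −0.26 to 0.22 for Chgb and −0.31 to 0.19 for Scg2. At 7 days aJ1aJ2 gave −0.015 to 0.28 for Ret, and the sets −0.82 to 0.13 for Calcb. The triple receptor effect was 0.91 to 1.20 for Calca, 1.54 to 1.92 for Chgb and 1.07 to 1.40 for Scg2.

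Of 15 correlations 4 passed, and 2 with a pseudocount of 2, in the first block and in the second block. Signs changed for Calca with Ret (0.043 unscaled, 0.076 without the 2 farthest libraries, 0.70 without the 8), Calca with Chga (−0.058 without the 2 farthest, −0.12 in the first block, −0.13 without the 8), Calcb with Chgb (−0.052) and with Ret (−0.043) in the first block, Chga with Chgb (−0.30 in the first block, −0.15 without the 8) and with Scg2 (−0.25 and −0.22), and Calcb with Chga (0.020 without the 8). The cause of these changes was not tested.

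Without scaling beyond total count the genes called split as 37 higher and 37 lower, against 64 and 42, for aJ1aJ2 at 15 hours, 12 and 4 against 14 and 19 at 5 days, 8896 and 3879 against 6680 and 5850 between the 7-day sets, and 37 and 9 against 35 and 88 or 137 and 61 against 127 and 221 for the 2 interactions. Depth limits Calcb above all, at 43 counts or fewer.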
